A study of Mus musculus with 12 samples.

Results

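Collagen genes were taken as every gene in the count table whose mouse symbol had the form Col, a number, the letter a and a number. The rule found 44 of 56205 genes, and 23 of these were detected, meaning 10 or more counts in at least 6 of 12 libraries. The same 23 passed the low-count filter of the test, and 20 of them held 10 or more counts in every library. The remaining 21 members were below the detection rule, and 2 of these (Col19a1 and Col26a1) had no count in any library.

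Collagens are secreted proteins whose chains wind into a triple helix, from identical chains or from partners encoded by separate genes. The fibrillar types I, III and V form the rope-like fibrils of scar tissue, type IV forms the sheet of basement membranes, type VI forms beaded filaments around cells, and FACIT collagens (fibril-associated collagens with interrupted helices) sit on fibril surfaces. In the liver, stellate cells and portal fibroblasts are the known makers of fibrillar collagen, endothelium lays down much of the type IV collagen, and hepatocytes are a known source of type XVIII.

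The livers came from ob/ob mice (B6.Cg-Lep ob/J), which lack leptin and become obese, and all animals were male per the labels and young adults at the start per the study's methods. In the OBOB_Fibrotic group, 6 mice had chow and 0.165% DL ethionine, an ethyl analogue of methionine, in the drinking water for 2 weeks. In the OBOB_FLO group, 6 mice had chow without ethionine. Another label describes an injection of 0.15% ethionine, and the study's methods give drinking water for a shorter time, so the dose and route of the OBOB_Fibrotic group are uncertain. Both groups share the leptin mutation, no lean mice were compared, and no measure of scarring was among the values used here, so that "fibrotic" is the name of the treated group.

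Poly(A) RNA of whole liver was counted in 12 libraries, with 17815568 to 24814263 counts each. OBOB_FLO replicate 3 held 3773 counts of Xist, the RNA of the inactive X chromosome, against 0 to 4 in the other 11 libraries, and 4 counts of the Y-linked gene Ddx3y, which goes against its male label. Results that rest on it are also given without it. The hepatocyte markers matched the labelled tissue, since Alb had a mean of 52922 CPM (counts scaled to a common normalized library size) in OBOB_Fibrotic and 65410 CPM in OBOB_FLO. None of the 58 markers of 8 liver cell types was at 0 in every library. In whole tissue, fewer cells of a type and less RNA per cell cannot be told apart.

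The upstream sequences of 3 fibrillar genes are shown first. Col5a1 and Col5a3 encode chains of the same collagen type, of which Col5a3 fell in OBOB_Fibrotic and Col5a1 did not, and Col27a1 fell with Col5a3. Col3a1, the type III gene, is shown as a chain that varied with Col1a1, and the last entry is the whole stretch between the starts of Col4a4 and Col4a3. The sequences are from RefSeq (GRCm38.p6), with 250 bases before the start that RefSeq annotates for each of the first 4 genes, and capitals mark a match on either strand to any of 3 short promoter motifs, the CCAAT box (CCAAT), the TATA box (TATAAA) and the GC box (GGGCGG).
Col5a1, chr2:27886175-27886424, plus strand: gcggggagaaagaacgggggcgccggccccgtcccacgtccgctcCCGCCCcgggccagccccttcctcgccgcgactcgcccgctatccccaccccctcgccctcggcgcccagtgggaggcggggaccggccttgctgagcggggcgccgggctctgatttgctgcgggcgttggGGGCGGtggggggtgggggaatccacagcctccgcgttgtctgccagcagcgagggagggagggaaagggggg
Col5a3, chr9:20815068-20815317, minus strand: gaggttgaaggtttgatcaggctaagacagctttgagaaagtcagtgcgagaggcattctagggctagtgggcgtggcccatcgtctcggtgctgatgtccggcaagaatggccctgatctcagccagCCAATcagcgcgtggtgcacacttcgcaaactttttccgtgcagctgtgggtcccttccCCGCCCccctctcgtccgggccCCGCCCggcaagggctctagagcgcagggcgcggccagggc
Col27a1, chr4:63215162-63215411, plus strand: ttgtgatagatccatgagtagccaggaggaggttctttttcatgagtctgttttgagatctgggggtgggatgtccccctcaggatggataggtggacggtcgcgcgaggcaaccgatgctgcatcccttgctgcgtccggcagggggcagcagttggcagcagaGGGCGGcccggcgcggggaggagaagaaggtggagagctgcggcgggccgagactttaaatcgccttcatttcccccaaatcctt
Col3a1, chr1:45311288-45311537, plus strand: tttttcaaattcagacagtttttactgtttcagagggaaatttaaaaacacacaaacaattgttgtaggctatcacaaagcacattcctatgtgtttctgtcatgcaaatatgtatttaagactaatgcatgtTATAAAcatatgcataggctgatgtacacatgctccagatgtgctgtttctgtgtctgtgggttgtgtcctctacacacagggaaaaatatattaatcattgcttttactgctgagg
Col4a4 to Col4a3, chr1:82586850-82586920, plus strand: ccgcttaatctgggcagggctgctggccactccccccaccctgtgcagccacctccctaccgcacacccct

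For Col27a1 the RefSeq start lies inside the gene as GENCODE places it, and its window holds no annotated exon. A window was given for 35 of the 44 members, 19 of them detected, with 21 windows for these 19. GGGCGG stood in 13 of the 21 windows, against 32.74% of all 32851 mouse windows, CCAAT in 8 against 33.85%, and TATAAA in 3 against 12.37%. Matches to different motifs did not overlap in the printed windows. The Col5a1 window held GGGCGG at 2 places and neither of the other motifs, while that of Col5a3 held GGGCGG at 2 places and CCAAT at 1. The Col4a4 and Col4a3 genes point away from each other and their starts are 71 bases apart, in a stretch that holds none of the 3 motifs. A motif match describes letters only and was not tied to any factor here.

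By level, one gene stood far above the other collagen genes. Per kilobase of its principal transcript, which allows genes of different length to be compared, Col18a1 reached a mean of 191 CPM per kb in OBOB_FLO and 116 in OBOB_Fibrotic. Next in OBOB_FLO were the fibrillar gene Col5a3 with 11.4 CPM per kb, the basement membrane gene Col4a1 with 10.2, the FACIT gene Col14a1 with 9.85 and Col3a1 with 9.54. Col4a2 followed with 6.45, Col1a2 with 5.88 and Col1a1, the major chain of type I collagen, with 4.56 CPM per kb.

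Col18a1 held 66.3% to 75.4% of the summed per-length collagen level in the OBOB_FLO libraries (median 70.7%) and 51.0% to 75.0% in OBOB_Fibrotic (median 62.9%). The summed level over all 44 genes was 248 to 280 CPM per kb in OBOB_FLO and 156 to 206 in OBOB_Fibrotic, and these ranges did not overlap. Without Col18a1 the sums were 67.5 to 93.5 and 50.5 to 97.8 CPM per kb, and they overlapped.

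**Figure D1:**
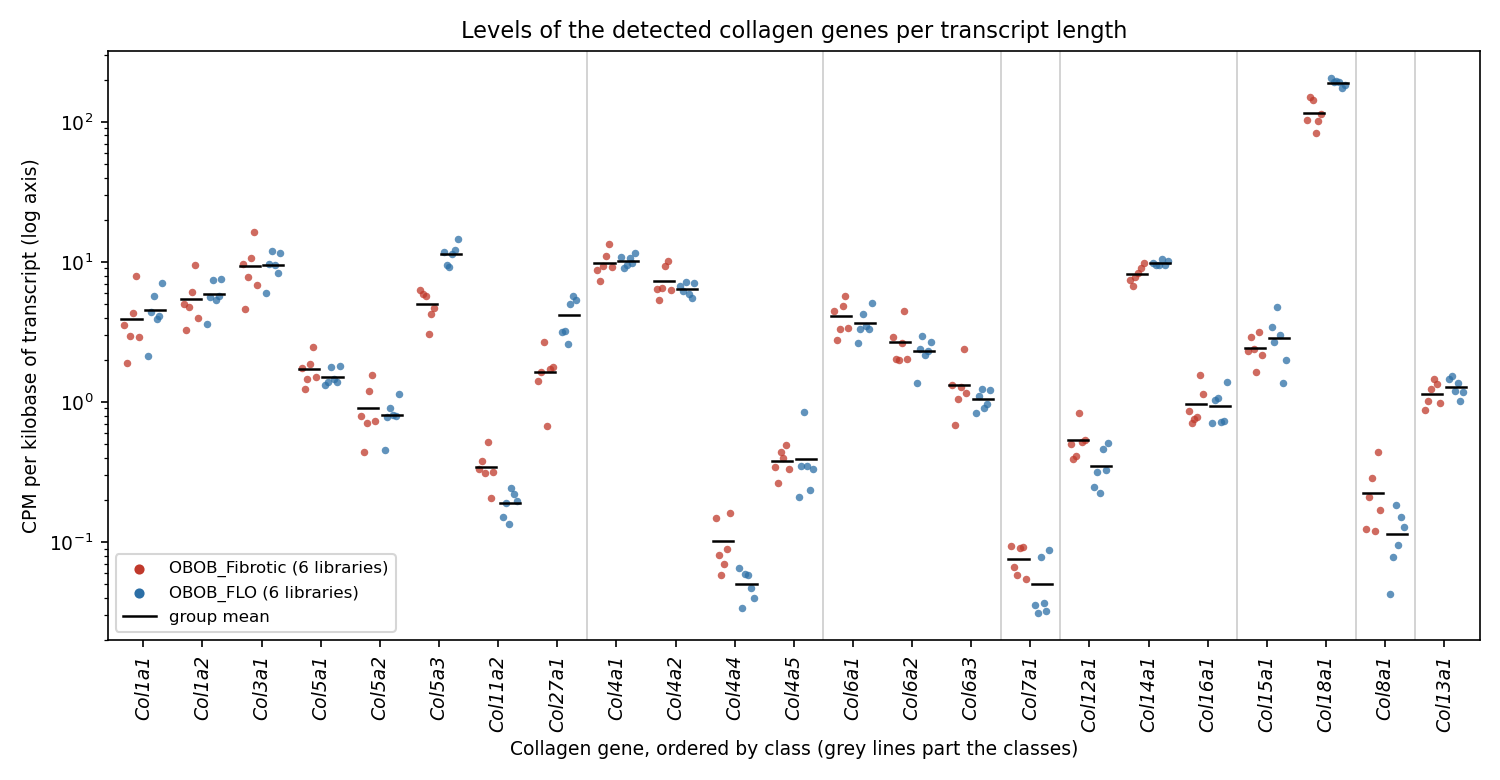
Levels of the 23 detected collagen genes in CPM per kilobase of transcript on a log axis, with a point for each of the 6 libraries a group, a black line at the group mean and grey lines between classes. Col18a1 lies above all other chains in both groups, and the 2 groups part without overlap for Col18a1 and Col5a3.

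Ethionine-treated and untreated livers were then compared gene by gene with the edgeR quasi-likelihood test over 13416 genes. A gene was called when its adjusted p (FDR, Benjamini-Hochberg over all genes tested) was 0.01 or less and its log2 fold change was over 0.5 in size. Of the 23 collagen genes tested, 1 rose, 3 fell and 19 were not called. Over all genes tested, 15.9% were called higher, 14.0% lower and 29.9% in either direction, so that 4 of 23 (17.4%) was no larger a share than the background. The groups did not overlap for 2 of the 23, against 30.4% of all genes. The median log2 fold change of the 23 was 0.03, with 12 above 0, beside 0.03 over all genes tested.

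The genes that fell were Col5a3, Col27a1 and Col18a1, and Col11a2 rose. Col5a3 (chr9:20770050-20815067, GRCm38) encodes a chain of type V collagen, which sits inside type I fibrils. It measured 18.6, 32.0 and 38.5 CPM (lowest, median, highest) in OBOB_Fibrotic and 56.0, 70.7 and 88.6 CPM in OBOB_FLO. Every OBOB_Fibrotic library was below every OBOB_FLO library. The log2 fold change was -1.19 (SE 0.16, n = 6 and 6, edgeR FDR 2.6e-05).

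Col27a1 (chr4:63214004-63334991) encodes a fibrillar collagen known mainly from cartilage. Its levels were 5.15, 12.8 and 20.4 CPM in OBOB_Fibrotic and 19.9, 31.3 and 43.8 CPM in OBOB_FLO. Only the highest OBOB_Fibrotic library, replicate 3, reached the lowest OBOB_FLO library, which was replicate 3 at 19.9 CPM; the next OBOB_FLO library had 24.0 CPM. The log2 fold change was -1.34 (SE 0.28, edgeR FDR 0.00129), the most negative of the 23.

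Col18a1 (chr10:77052178-77166548) encodes type XVIII collagen, a heparan sulfate carrier of basement membranes whose C-terminal fragment is endostatin. It had 400, 519 and 724 CPM in OBOB_Fibrotic and 833, 923 and 993 CPM in OBOB_FLO, with no overlap. Its log2 fold change was -0.72 (SE 0.13, edgeR FDR 0.000326). Across the 12 libraries, with group means removed, its log2 CPM had a Pearson r of 0.98 with the summed CPM of the 6 hepatocyte markers, most of which is Alb. That sum was 49142 to 82744 CPM in OBOB_Fibrotic and 70370 to 84862 CPM in OBOB_FLO. Of the 6 markers Cps1 was called higher and Apoa1 and Serpina1a lower, where 15.9% of all genes tested were called higher and 14.0% lower. The part of the hepatocyte signal in the fall of Col18a1 was not tested.

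Col11a2 (chr17:34039437-34066685), a fibrillar chain of cartilage type XI collagen, was low throughout. It had 1.11, 1.76 and 2.81 CPM in OBOB_Fibrotic (22 to 60 counts) and 0.727, 1.05 and 1.32 CPM in OBOB_FLO (15 to 27 counts). The lowest OBOB_Fibrotic library, replicate 5, was within the OBOB_FLO range. Its log2 fold change was 0.86 (SE 0.24, edgeR FDR 0.00755), and the call was lost in 14 of 20 other settings, in which the FDR reached 0.0199, while the 3 genes that fell were called in all 20.

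**Figure D2:**
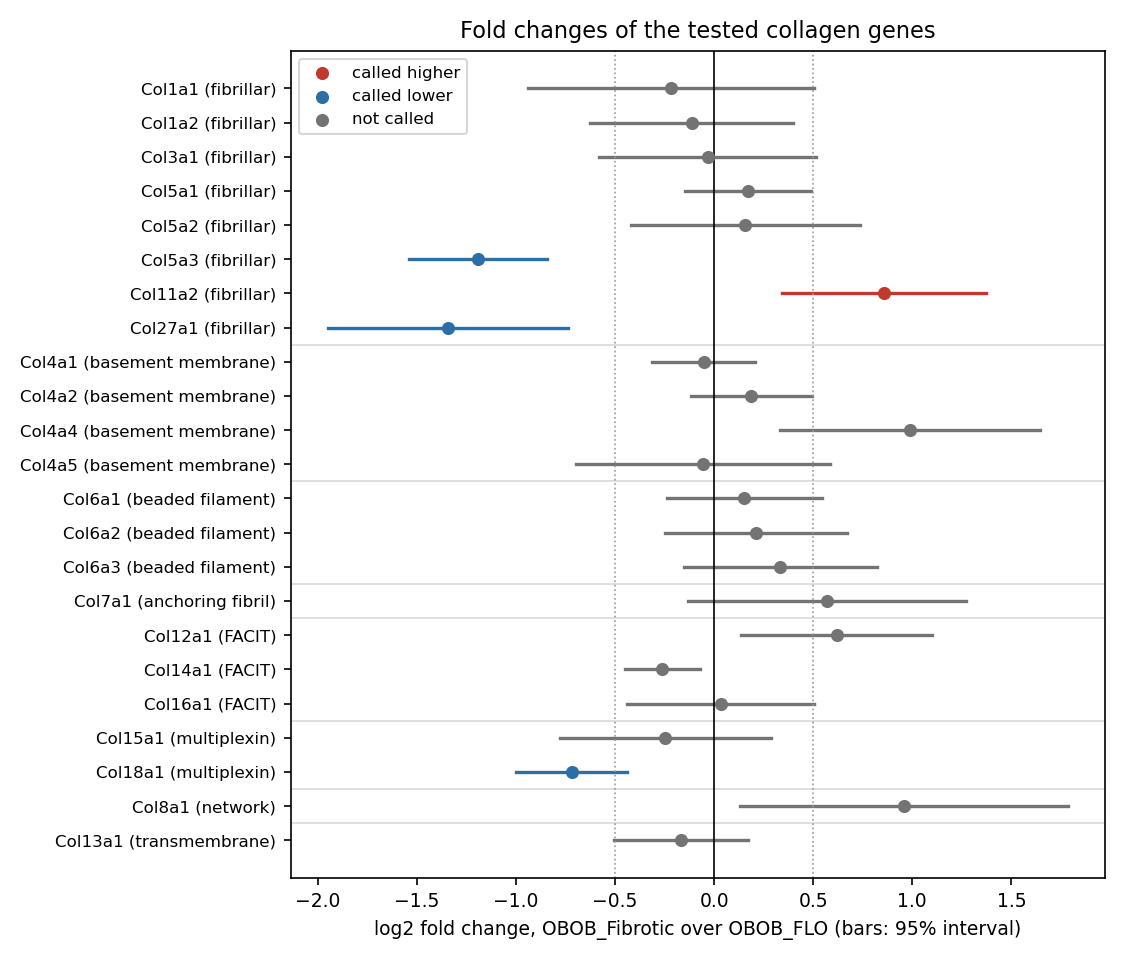
Log2 fold changes of the 23 tested collagen genes, OBOB_Fibrotic over OBOB_FLO, with 95% intervals from the edgeR fit, grouped by class; dotted lines mark 0.5 in either direction. The intervals of Col5a3, Col27a1 and Col18a1 lie wholly below 0, while those of Col1a1, Col1a2 and Col3a1 include 0.

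The chains that make up most of the fibrillar collagen of a scar were not called. Col1a1 had 11.3, 19.4 and 46.8 CPM in OBOB_Fibrotic and 12.7, 25.2 and 42.2 CPM in OBOB_FLO. The ranges covered each other, and the log2 fold change of -0.22 had a 95% interval of -0.94 to 0.51 (FDR 0.611). Its type I partner Col1a2 had 17.6, 26.2 and 50.6 CPM against 19.3, 30.2 and 40.4 CPM, a log2 fold change of -0.11 with an interval of -0.63 to 0.40. Col3a1 had 25.9, 48.8 and 90.6 CPM against 33.5, 53.3 and 66.7 CPM, and its log2 fold change of -0.03 had an interval of -0.58 to 0.52; its sign turned in 5 of the settings that left out 1 library. At this depth and spread, changes up to those bounds could not be told from 0.

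The other type V chains, Col5a1 and Col5a2, which help set the width of type I fibrils, were not called either. In OBOB_FLO they had 1.52 and 0.814 CPM per kb, against 11.4 for Col5a3. In OBOB_Fibrotic they had 1.72 and 0.909 CPM per kb, against 4.99 for Col5a3. Col5a1 had 10.4, 13.6 and 20.9 CPM in OBOB_Fibrotic and 11.1, 11.98 and 15.1 CPM in OBOB_FLO, with a log2 fold change of 0.17 (interval -0.14 to 0.49). Col5a2 had 2.90, 5.07 and 10.4 CPM against 3.01, 5.30 and 7.57 CPM, with a log2 fold change of 0.16 (interval -0.42 to 0.74). Both groups overlapped for both genes. The fibrillar class as a whole had 11 genes, 8 of them tested, with 1 higher, 2 lower and a median log2 fold change of -0.07. The other 3, Col2a1, Col11a1 and Col24a1, had 1, 1 and 70 counts over all 12 libraries.

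Of the basement membrane genes, 4 of 6 were tested and none was called, at a median log2 fold change of 0.07. Col4a1 had 48.8, 61.6 and 89.1 CPM in OBOB_Fibrotic and 60.1, 67.7 and 76.5 CPM in OBOB_FLO (log2 fold change -0.05, interval -0.31 to 0.21). Its partner Col4a2, which joins it in the common network, had 34.5, 41.5 and 65.3 CPM against 35.7, 41.7 and 46.3 CPM (0.19, interval -0.12 to 0.49). In both genes the OBOB_FLO range lay inside the wider OBOB_Fibrotic range. Col4a5, a chain of specialised membranes such as the glomerulus, had 1.73 to 3.22 CPM against 1.37 to 5.56 CPM, the highest being OBOB_FLO replicate 3, and its log2 fold change of -0.06 became 0.35 (FDR 0.20) without that library.

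Col4a4, another chain of the specialised network, had the largest positive log2 fold change of the 23, 0.99 (SE 0.31), but its FDR of 0.0141 missed the threshold. It held 10 or more counts in 6 OBOB_Fibrotic but only 3 OBOB_FLO libraries. It thus passed the low-count filter through the group where it was higher, and its rank is not support for a rise. It had 0.593, 0.861 and 1.62 CPM in OBOB_Fibrotic (11 to 32 counts) and 0.345, 0.531 and 0.656 CPM in OBOB_FLO (6 to 14 counts). Replicates 1 and 6 of OBOB_Fibrotic were the highest, and the groups overlapped at the lower end.

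The type VI genes Col6a1, Col6a2 and Col6a3 all had fold changes above 0 and none was called. Col6a1 had 11.4, 16.2 and 23.6 CPM in OBOB_Fibrotic and 10.9, 13.9 and 20.8 CPM in OBOB_FLO (log2 fold change 0.15, interval -0.24 to 0.54). Col6a2 had 7.87, 9.24 and 17.7 CPM against 5.36, 9.27 and 11.7 CPM (0.21, interval -0.25 to 0.67). Col6a3 had 6.22, 10.99 and 21.5 CPM against 7.49, 9.29 and 11.1 CPM (0.33, interval -0.15 to 0.82). For Col6a3, the OBOB_Fibrotic group held both the lowest and the highest library. The other type VI chains, Col6a4, Col6a5 and Col6a6, were not detected.

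Among the FACIT genes, 3 of 9 were tested and none was called. Col14a1, which binds fibril surfaces, had 38.0, 46.1 and 56.2 CPM in OBOB_Fibrotic and 53.9, 55.0 and 59.8 CPM in OBOB_FLO, and 5 of its 6 OBOB_Fibrotic libraries were below every OBOB_FLO library. Its log2 fold change was -0.26 (SE 0.09, FDR 0.0220). Col12a1, which also coats fibrils, had 4.53 to 9.59 CPM against 2.57 to 5.84 CPM, with a log2 fold change of 0.62 (SE 0.23, FDR 0.0316). Col16a1 had 3.67 to 8.06 CPM against 3.72 to 7.21 CPM and a log2 fold change of 0.03, whose sign turned in 5 of the settings that left out a library.

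The remaining classes held few detected genes. Col15a1, the other multiplexin beside Col18a1, had 8.52, 12.2 and 16.3 CPM in OBOB_Fibrotic and 7.05, 14.7 and 24.8 CPM in OBOB_FLO (log2 fold change -0.25, FDR 0.429), and its OBOB_FLO range covered that of OBOB_Fibrotic. Its highest library was OBOB_FLO replicate 3, without which the log2 fold change was -0.039. Col8a1, a network collagen of vessels and cornea, had 0.608 to 2.27 CPM against 0.219 to 0.941 CPM (0.96, SE 0.39, FDR 0.0497). Col7a1, the anchoring fibril gene, had 10 to 18 counts against 5 to 17 (0.57, SE 0.33, FDR 0.160). Col8a1 and Col7a1 also passed the filter through OBOB_Fibrotic, with 10 or more counts in 6 of its libraries against 4 and 2 of OBOB_FLO. Col13a1, a transmembrane collagen, had 2.76 to 4.59 CPM against 3.20 to 4.82 CPM (-0.17, FDR 0.403), and the other transmembrane genes Col17a1, Col23a1 and Col25a1 were not detected.

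Below the detection rule, 2 of the 19 genes with a count had groups that did not overlap. They are named here after their values were seen. The same share over all genes below the low-count filter was not counted, so this number is not read as a trait of collagen genes. Col22a1 (chr15:71795795-72034227) encodes a FACIT collagen known from tissue junctions such as that of muscle and tendon. Its counts in OBOB_Fibrotic replicates 1 to 6 were 59, 16, 7, 87, 13 and 32, and in OBOB_FLO they were 3, 2, 5, 4, 0 and 1. Replicates 4 and 1 of OBOB_Fibrotic were the highest, and no OBOB_FLO library reached the lowest of OBOB_Fibrotic. The mean log2 CPM was higher by 2.73 in OBOB_Fibrotic, and as the gene was singled out because its groups do not overlap, no test of that difference is given.

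Col4a3 (chr1:82586921-82722059) encodes the chain that joins those of Col4a4 and Col4a5 in the specialised basement membrane network. Its counts were 26, 8, 24, 24, 13 and 30 in OBOB_Fibrotic and 5, 5, 9, 2, 4 and 3 in OBOB_FLO. In CPM the ranges were 0.408 to 1.52 and 0.098 to 0.385, without overlap. The mean log2 CPM was higher by 1.70 in OBOB_Fibrotic, again without a test. Its annotated exons share 563 bases with the opposite-strand gene C430014B12Rik, which held 97 counts in all, and the sources used here do not say whether counting used strand.

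Fitted without the low-count filter, edgeR gave log2 fold changes of 3.70 for Col22a1 (SE 0.65) and 2.09 for Col4a3 (SE 0.41). These were the only collagen genes called higher among the 42 with a count in that fit, in which 8.99% of 24871 genes were called higher. As both were singled out by the same values, these calls do not test their rise. Of the 6 cholangiocyte markers, 3 of the 5 tested (Epcam, Sox9 and Spp1) were called higher in the main fit, against 15.9% of all genes tested. None of the 6 was at 0 throughout, and their summed level was 80.7 to 275 CPM in OBOB_Fibrotic and 47.2 to 88.0 CPM in OBOB_FLO. Most of the sum was Spp1, with means of 122 and 60.5 CPM. In OBOB_Fibrotic replicates 1 to 6 the sums were 135, 92.9, 80.7, 185, 275 and 99.1 CPM. Col22a1 had 59, 16, 7, 87, 13 and 32 counts there, and Col4a3 had 26, 8, 24, 24, 13 and 30. Apart from replicate 5, the order of the sums was that of Col22a1 but not that of Col4a3. The part of bile duct cells in either gene was not tested.

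**Figure D3:**
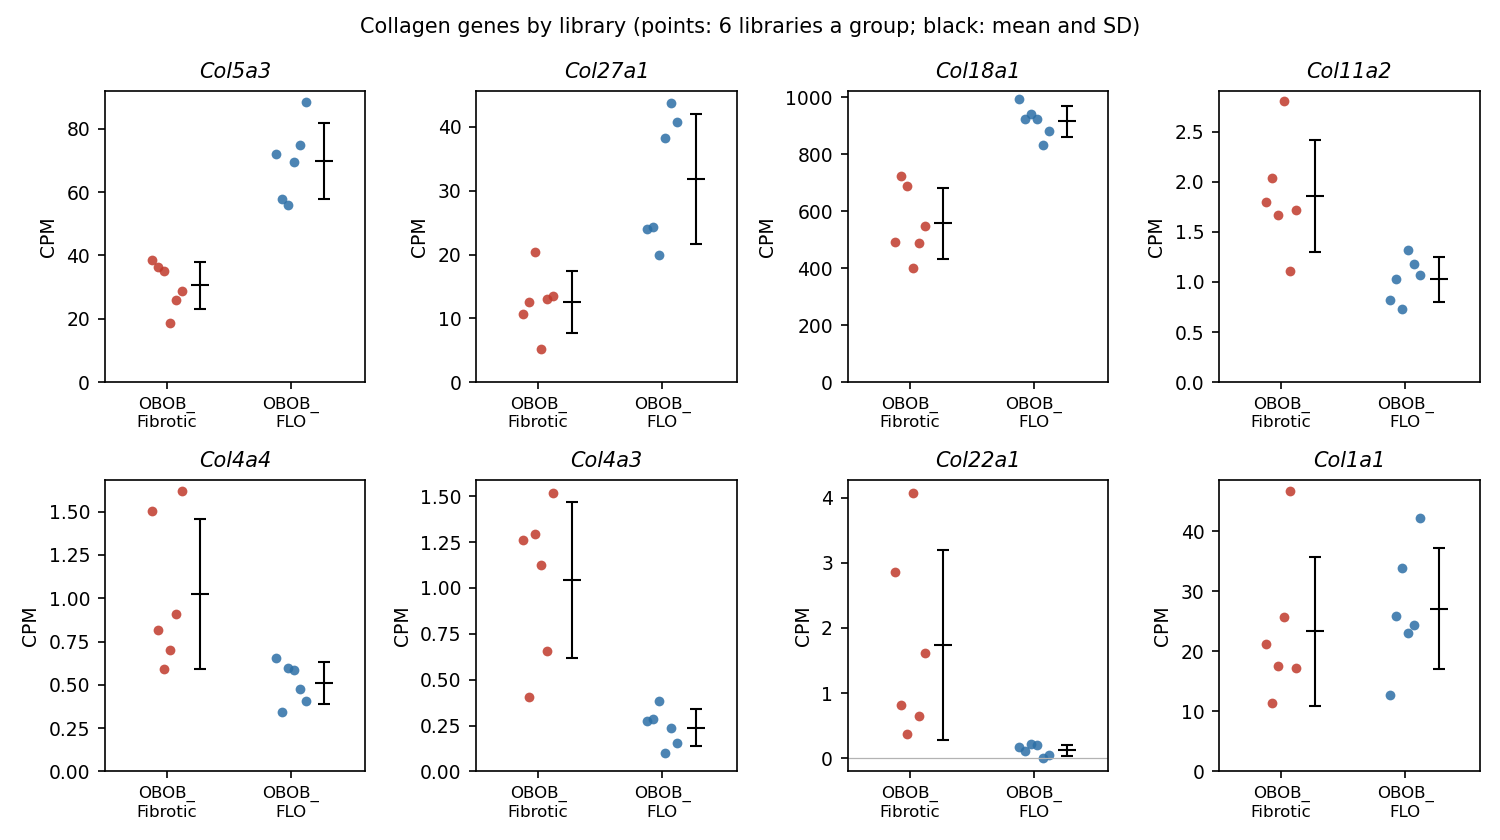
CPM of 8 collagen genes by library on linear axes, with 6 points a group and the mean and SD in black. Col5a3, Col18a1, Col4a3 and Col22a1 part the groups without overlap, Col27a1 touches at 1 library, and Col1a1 ranges over 11.3 to 46.8 CPM in OBOB_Fibrotic and 12.7 to 42.2 CPM in OBOB_FLO.

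The other undetected chains were near the floor of the counts. Counting Col22a1 and Col4a3, 9 undetected genes had 30 counts or more in all 12 libraries together and 12 had under 30, of which the highest total was 28. The detection rule cut where 3 genes, Col4a3, Col6a5 and Col22a1, held 10 counts in 5 libraries, and the detected gene nearest to it, Col7a1, held them in 8. Col19a1 and Col26a1 had 0 counts in all 12 libraries of 17815568 to 24814263 counts. A count of 0 in a single library leaves room for up to 3 counts by counting error, and 0 in all 12 sets a tighter limit. Of the undetected genes other than Col22a1 and Col4a3, Col20a1 had 3 to 11 counts in OBOB_Fibrotic and 7 to 15 in OBOB_FLO (exact permutation p = 0.0216), and Col17a1 had 1 to 8 and 0 to 3 (exact permutation p = 0.0281); these 2 are the smallest p-values of the 17 and were not adjusted.

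Ratios of partner chains were taken within a library, where the scaling of the library cancels, for 10 pairs. Only Col5a3 over Col5a1 passed (exact permutation test, two-sided, adjusted over the 10 pairs). The mean log2 ratio of CPM was 1.07 ± 0.644 (SD, n = 6) in OBOB_Fibrotic and 2.43 ± 0.295 in OBOB_FLO, a difference of -1.36 (exact p = 0.00216, the smallest that 6 against 6 libraries can give, adjusted p = 0.0216). Per length, Col5a3 was 1.63 to 4.79 times Col5a1 in OBOB_Fibrotic (median 3.38) and 5.18 to 8.92 times in OBOB_FLO (median 7.94). OBOB_Fibrotic replicates 4 and 5 had the lowest ratios, and no library of one group reached the other.

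The 2 chains of type I collagen kept a per-length ratio of Col1a1 to Col1a2 with medians of 0.711 in OBOB_Fibrotic and 0.749 in OBOB_FLO, a log2 difference of -0.11 (exact permutation p = 0.359, adjusted p = 0.599). Col1a1 to Col3a1 differed by -0.16 (exact permutation p = 0.210). For type VI, Col6a1 to Col6a2 differed by -0.05 (exact permutation p = 0.682) and Col6a1 to Col6a3 by -0.11 (exact permutation p = 0.424). Col5a1 to Col5a2 differed by 0.06 (exact permutation p = 0.734). After adjustment over the 10 pairs, the exact permutation p of these 4 was 0.420 to 0.734.

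Col4a1 to Col4a2 was lower by 0.23 in OBOB_Fibrotic on the log2 scale, with per-length medians of 1.37 and 1.61 (exact permutation p = 0.0238, adjusted p = 0.119). Col18a1 to Col15a1 differed by -0.59 (exact permutation p = 0.0476, adjusted p = 0.146), with per-length medians of 51.2 and 68.3. Without OBOB_FLO replicate 3, the library whose sex markers go against its label, both of these passed, at differences of -0.28 and -0.75 (each exact permutation adjusted p = 0.0108). Col27a1 to Col1a1 differed by -1.11 (exact permutation p = 0.0584, adjusted p = 0.146) and Col4a1 to Col1a1 by 0.19 (exact permutation p = 0.535, adjusted p = 0.668).

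**Figure D4:**
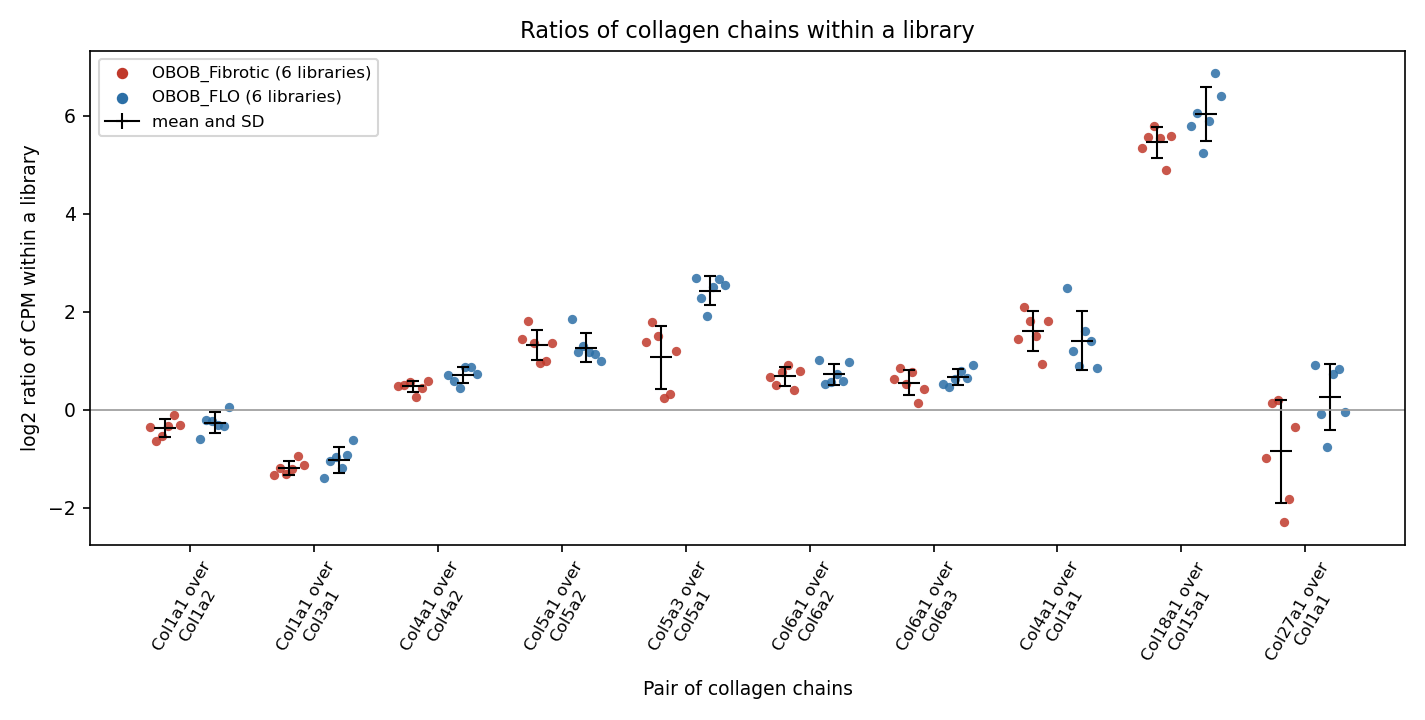
Log2 ratios of CPM between 10 pairs of collagen chains within a library, with 6 points a group and the mean and SD in black. The groups part for Col5a3 over Col5a1 and overlap in the other 9 pairs.

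Although no type I, III or VI chain was called between groups, these genes varied together from mouse to mouse. With the group means removed, 7 of 22 chains had a Pearson r of 0.8 or more with Col1a1 over the 12 libraries, against 1.01% of all genes tested. They were Col1a2 (0.99), Col5a2 (0.97), Col3a1 (0.96), Col6a1 (0.95), Col5a1 (0.93), Col6a2 (0.93) and Col6a3 (0.91), with Spearman rho of 0.916 to 0.972. Permutation p-values within groups were 2e-05 to 0.00031 for r and 4e-05 to 0.00024 for rho, and those for r were 0.00022 to 0.000974 after adjustment over the 22 chains. The median r over the 22 chains was 0.64, beside -0.02 over all genes.

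The relation held with fewer libraries and within each group. Without OBOB_Fibrotic replicate 5 and OBOB_FLO replicate 1, the 2 libraries farthest from the median of Col1a1, r of the 7 chains was 0.75 to 0.96, lowest for Col6a2. Within the 6 OBOB_Fibrotic libraries r was 0.91 to 0.99, and within the 6 OBOB_FLO libraries 0.86 to 0.99. OBOB_Fibrotic replicate 5 was the highest of its group for all 8 chains, Col1a1 included, and OBOB_FLO replicate 1 the lowest of its group for all 8. The coefficient of variation of the 8 chains was 25.5% to 53.4% in OBOB_Fibrotic and 13.6% to 37.2% in OBOB_FLO. It was higher in OBOB_Fibrotic for all 8, which varied together and are not separate observations, and for 19 of the 23 tested genes. The share of all genes with a larger spread in OBOB_Fibrotic was not counted, so this is not read as a trait of collagen genes.

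The genes called between groups stood outside this set. Col5a3, Col27a1 and Col11a2 had r with the 5 fibrillar chains of the set between -0.44 and -0.05 in all 15 pairs. The fibrillar class thus held chains that varied closely together and chains that did not, and the median r of its 28 pairs was -0.10 beside 0.24 over all 253 pairs of detected genes. Fibrillar and type VI genes had a median r of 0.89 over 24 pairs. Col5a3 and Col27a1, which both fell, had an r of 0.74 with each other after the group means were removed. OBOB_Fibrotic replicate 4 was the lowest of its group for both, at 18.6 and 5.15 CPM. How far this r rests on that library was not tested.

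Col18a1 had the lowest r with Col1a1, -0.59 (permutation p = 0.0587, adjusted p = 0.0994), with rho of -0.62. Its r with the 8 chains was -0.73 to -0.52. Of the others, Col16a1 (r = 0.78, permutation adjusted p = 0.0122), Col4a2 (0.72, permutation adjusted p = 0.0237) and Col7a1 (0.66, permutation adjusted p = 0.0364) also passed at 0.05, which makes 10 of 22. Without the 2 farthest libraries Col16a1 had r of 0.58, Col4a2 0.86 and Col7a1 0.75.

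For the common type IV chains, r with Col1a1 had different values in the 2 groups. Within OBOB_Fibrotic r was 0.96 for Col4a1 and 0.92 for Col4a2 (exact permutation p = 0.00694 and 0.00417, adjusted over the 22 chains 0.0191 and 0.0153), and within OBOB_FLO it was 0.0049 and 0.30 (exact permutation p = 0.993 and 0.607, adjusted 0.996 and 0.835). The difference between the groups was not tested. Col4a1 and Col4a2, which share a start region on opposite strands with 22 annotated bases in common, had an r of 0.86 with each other.

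**Figure D5:**
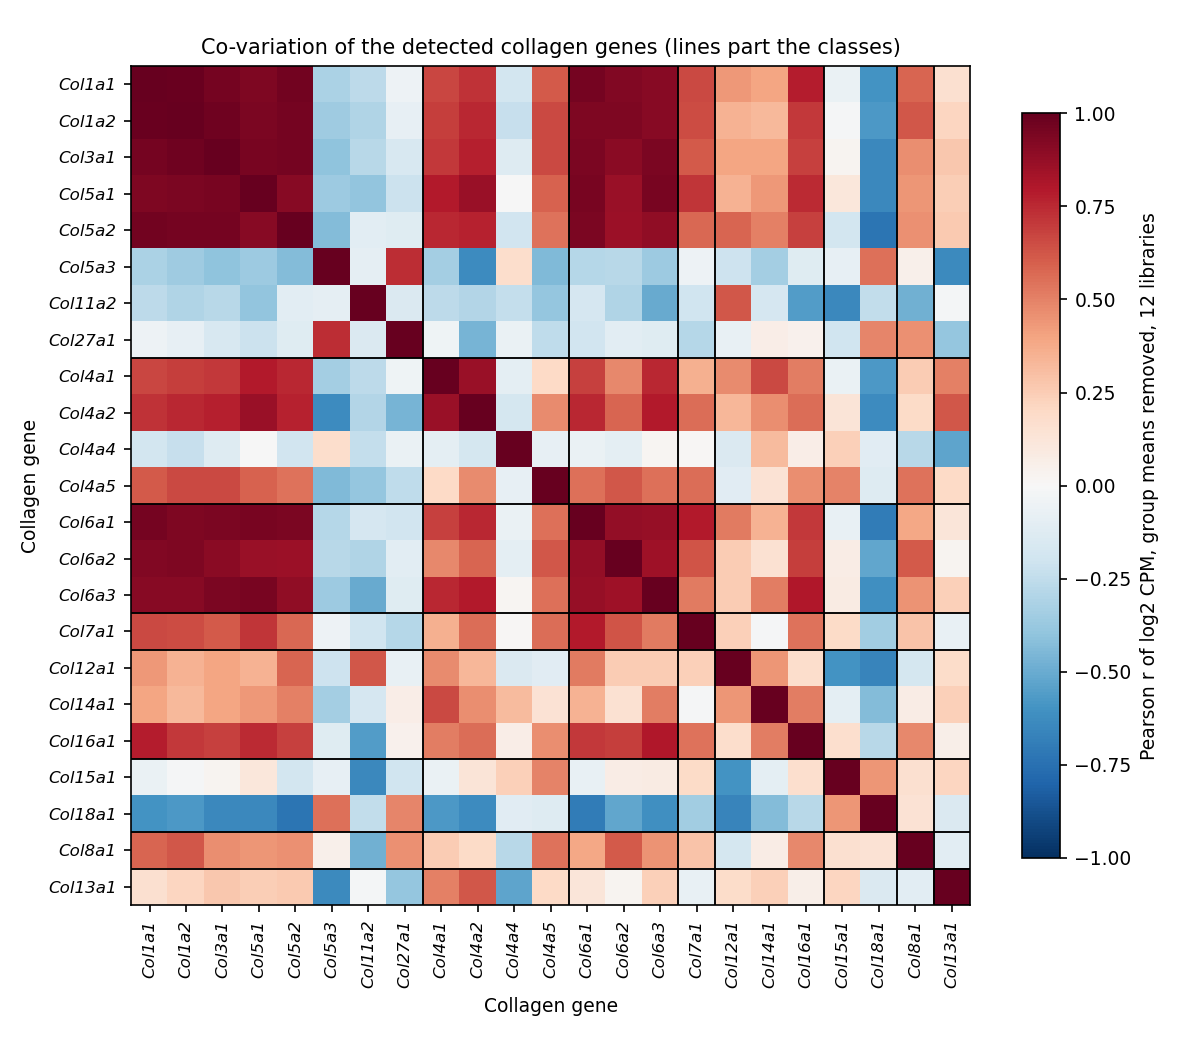
Pearson r of log2 CPM between the 23 detected collagen genes over 12 libraries after removal of the group means, ordered by class with black lines between classes. Types I, III, V (without Col5a3) and VI form a block with r of 0.85 to 0.99, Col5a3, Col27a1 and Col11a2 lie outside it, and Col18a1 is negative with all 8 of its chains.

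Over all 13415 other genes, those nearest to Col1a1 by r were Col1a2, Col5a2, Mrc2, Col3a1, Col6a1, Lhfp, Fbn1, Timp2, Sparc and Sphk1, with r of 0.94 to 0.99. Mrc2 encodes an endocytic collagen receptor, Fbn1 the microfibril protein fibrillin, Timp2 an inhibitor of matrix proteases and Sparc a collagen-binding matrix protein. Of the stellate cell markers, 1 of 10, Pdgfrb, had an r of 0.91, and none of the others reached 0.8. Singly, the 10 had a median r of 0.40 (0.09 to 0.91). Their summed CPM had an r of 0.83, with 418 to 561 CPM in OBOB_Fibrotic and 388 to 489 CPM in OBOB_FLO. The largest parts of that sum were Ecm1 (r of 0.39) and Dcn (r of 0.77). Of the 10, 1 (Lrat) was called higher, against 15.9% of all genes tested. The sum of the 6 cholangiocyte markers, most of which is Spp1, had an r of 0.89. Singly, the tested markers of that list had r of 0.44 (Sox9) to 0.90 (Spp1). The sums of the other lists had r of 0.71 (portal fibroblast), 0.67 (mesothelium), 0.46 (smooth muscle), 0.42 (endothelium), 0.17 (Kupffer cell) and -0.52 (hepatocyte). These correlations share the 12 libraries and their scaling, and the part of any cell type in the co-variation was not tested.

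Collagen chains need enzymes and chaperones before they can be secreted, and 38 such genes of hydroxylation, folding, export, trimming, crosslinking and uptake were followed. Of these 33 were tested, 1 rose and 3 fell, where 29.9% of all genes tested were called in either direction, and the median log2 fold change was 0.03. Of the 3 that fell, Mia2 (-1.15, SE 0.09, edgeR FDR 1.3e-07) and Mia3 (-0.57, SE 0.09, edgeR FDR 6.5e-05) help load bulky cargo into export vesicles, and Fkbp14 (-0.56, SE 0.14, edgeR FDR 0.00441) is a folding enzyme. Pepd, which breaks down proline-containing dipeptides left by collagen turnover, rose (0.81, SE 0.07, edgeR FDR 1.5e-07). Mia2 had a mean of 172 ± 14.4 CPM (SD, n = 6) in OBOB_Fibrotic and 383 ± 40.6 CPM in OBOB_FLO.

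The collagen-specific chaperone Serpinh1 (-0.23, FDR 0.235), the prolyl hydroxylase subunit P4ha1 (0.05, FDR 0.763), the lysyl hydroxylase Plod2 (0.27, FDR 0.526) and the crosslinking enzyme Lox (0.20, FDR 0.674) were not called. P4hb, the other hydroxylase subunit, had 1570 ± 155 CPM against 2059 ± 138 CPM without overlap, and its log2 fold change of -0.39 (FDR 0.00299) was under the fold minimum. The crosslinking enzyme Loxl2 was at 0.96 (SE 0.35, FDR 0.0332). Of the 33, 8 had an r of 0.8 or more with Col1a1: Mrc2, Sparc, Fkbp10, Loxl1, Adamts2, Plod2, P3h3 and Creb3l1.

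Collagen receptors were the smaller list, with 9 of 12 genes tested, 2 higher, none lower and a median log2 fold change of 0.57, where 15.9% of all genes tested were called higher. Adgrg1, an adhesion receptor for type III collagen, rose by 1.23 (SE 0.20, edgeR FDR 0.000117), and Cd44, a hyaluronan receptor that also binds collagen, by 1.01 (SE 0.23, edgeR FDR 0.00211). The collagen-sensing kinase Ddr1 was at 1.22 (SE 0.37, FDR 0.0145), its relative Ddr2 at 0.15 (FDR 0.417) and the integrin subunit Itgb1 at -0.01 (FDR 0.928). Cd44 is also made by immune cells and Ddr1 by epithelial cells. Of the Kupffer cell markers 4 of 5 were called higher, with sums of 171 to 331 CPM in OBOB_Fibrotic and 121 to 157 CPM in OBOB_FLO, and of the cholangiocyte markers 3 of the 5 tested. The part of these cells in the receptor values was not tested.

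Markers of other cells that can make matrix were read beside the collagen genes, where 14.0% of all genes tested were called lower. Of the portal fibroblast list 2 of 7 tested fell (Fbln2 and Entpd2), with sums of 14.9 to 32.0 CPM in OBOB_Fibrotic and 24.4 to 39.2 CPM in OBOB_FLO. Of the smooth muscle list 2 of 5 fell (Acta2, the actin of contractile cells, and Mylk), with sums of 50.5 to 65.1 and 92.9 to 115 CPM. Of the endothelial list 1 of 10 fell (Kdr), with sums of 194 to 242 and 255 to 288 CPM, and of the mesothelium list 1 of 4 (Krt8, which hepatocytes also make). Their part in the collagen values was not tested. Zfp469, the mouse form of the regulator that the study is about, had 3 to 24 counts and 0.674 ± 0.395 CPM (SD, n = 6) in OBOB_Fibrotic against 0.336 ± 0.197 CPM in OBOB_FLO (exact permutation p = 0.104), and did not pass the low-count filter.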

How the data were processed

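The authors deposited 1 table of raw counts per Ensembl gene for 12 libraries, not normalized. Per the labels' processing notes, bcl2fastq, STAR 2.7.3a and mm10 were used, and the study's methods name PISCES; the annotation and the use of strand are not given in the sources used here. Symbols matched 51745 of 56205 identifiers, and genes without a symbol held 0.0587% of counts. Groups came from sample titles.

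Counts were fitted in R 4.3.3 with edgeR 4.0.16 (TMM, filterByExpr, robust quasi-likelihood test), which was tested on simulated data. CPM use TMM-scaled library sizes, and log2 CPM a prior count of 2. Lengths and coordinates are of GENCODE M21 (GRCm38), taking the principal transcript. Classes added to the 5 of the rule were beaded filament, anchoring fibril, multiplexin and other. Co-variation used 100000 permutations within groups. DESeq2 1.42.0, limma-voom (limma 3.58.1), other scalings and filters, and each library left out were alternatives. Named genes were those called, the main chains, both ends of the fold-change order, and called list genes with fixed examples.

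The members and lists were chosen with earlier results of these data known. Col22a1 and Col4a3 were singled out after seeing the data. Libraries of a group differed by more than sampling noise (smallest chi-square per degree of freedom 10.3). SDs between libraries include counting error; the floor covers counting error only.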

Additional observations from a re-analysis of the deposited data

Results flagged for a closer look

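In 70 groups of 6 libraries examined for a lone extreme library, 2 were found, where chance gives about 3.5. The gap of OBOB_FLO replicate 3 to the next library took 0.635 of the group's range for Col4a5, whose level there was 5.56 CPM against 1.37 to 2.30 CPM in the other 5; the gene lies on the X chromosome and the library holds Xist counts against its male label. For the log2 ratio of Col5a1 to Col5a2, OBOB_FLO replicate 1 was the highest, its gap taking 0.642 of the range.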

How the results depend on the processing

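The 3 genes called lower were called in all 20 alternatives. The number called higher moved from 1 (Col11a2) to 0 with upper quartile scaling or limma-voom and to 2 without the low-count filter (Col22a1 and Col4a3). It was 3 with DESeq2 (these and Col11a2) and 4 at FDR 0.05 with no fold minimum. With 1 library left out it was 0 to 3. It was 0 without OBOB_Fibrotic replicate 1, 4 or 6, and 2 (Col22a1 and Col4a4) without OBOB_Fibrotic replicate 3. Without OBOB_Fibrotic replicate 2 the 1 gene was Col4a3. Without OBOB_FLO replicate 1, 2, 3, 5 or 6 it was 2 (Col22a1 and Col4a3), and Col11a2 was not called. Without OBOB_FLO replicate 4 it was 3 (Col11a2, Col22a1 and Col4a3). Col22a1 and Col4a3 held 10 counts in 5 OBOB_Fibrotic and 0 OBOB_FLO libraries, so they entered these filtered fits through OBOB_Fibrotic. Detection by at least 1 count in 6 libraries gave 35 genes. The median log2 fold change was -0.14 to 0.22 with 1 library left out. Partner pairs passing were 1 to 3 with 1 library left out, 3 without OBOB_FLO replicate 3. Replicate numbers did not pair the samples (r of same-numbered libraries -0.16 to 0.10). With the replicate block the calls were 1 higher (Col12a1) and 3 lower. In the paired test 0 partner pairs passed, but its smallest raw p is 0.03125. After adjustment over the 10 pairs, a pair alone could not pass in that test, so no conclusion is drawn from it.

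Signs turned where values were near 0: Col4a5 with limma-voom (0.045) or the replicate block (0.070), and, with 1 library left out (full range), Col5a2 (-0.060 to 0.30), Col3a1 (-0.26 to 0.11), Col4a5 (-0.18 to 0.35), Col4a1 (-0.16 to 0.019), Col16a1 (-0.15 to 0.17), and the ratios Col5a1 to Col5a2 (-0.039 to 0.17) and Col6a1 to Col6a2 (-0.094 to 0.0089). The causes were not tested. Col11a2 and Col4a4 had few counts a library (15 to 60 and 6 to 32), and the part of depth in their errors was not tested.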
